A study of Mus musculus with 26 samples.

Results

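The Nr4a family consists of 3 orphan nuclear receptors, Nr4a1 (Nur77), Nr4a2 (Nurr1) and Nr4a3 (Nor1), and their RNA was followed in brown adipose tissue (BAT) of mice kept warm or exposed to cold. The members were taken by gene symbol from the deposited counts, 3 of the 50686 genes listed, and all 3 were among the 17286 genes with enough counts to be tested. The 26 mice were male C57BL/6J littermates of 12 to 16 weeks of age. They carried either an adipocyte-specific knock-out of Afadin, made with Adiponectin-Cre and floxed Mllt4 (Afdn) alleles and labelled Afadin KO, or were controls, labelled WT. All of them spent 14 to 18 days at thermoneutrality (labelled 30 °C). Of the controls, 7 mice stayed there and 5 were moved to 5 °C for 6 h, and of the Afadin KO mice 7 stayed and 7 were moved. The whole fat pad was sequenced, and Cre is active in adipocytes only, in white as well as brown fat.

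Nr4a receptors bind DNA and activate transcription without a known physiological ligand, so that their activity follows mainly from how much of each protein is made. They are immediate early genes, transcribed within minutes of a hormonal or neural signal and turned over quickly. In brown fat, cold releases noradrenaline from sympathetic nerves, which acts on β-adrenergic receptors and raises cAMP. Protein kinase A then phosphorylates CREB, a factor that binds the cAMP response element (CRE) and is a known activator of Nr4a promoters.

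In mm10 coordinates (GENCODE M21), Nr4a1 (ENSMUSG00000023034.6) lies on the plus strand at chr15:101254269-101274795, Nr4a2 (ENSMUSG00000026826.13) on the minus strand at chr2:57106830-57124003, and Nr4a3 (ENSMUSG00000028341.9) on the plus strand at chr4:48045153-48086447. The merged exons span 3509, 4059 and 5987 bp, and no other annotated gene overlaps them. The sequence before the RefSeq start site of each gene is shown because it carries the CRE half-sites that the family shares. It is printed 5′ to 3′ on the strand of the gene and holds no base of an annotated exon. The stretch of Nr4a1 lies inside the annotated gene, in an intron of its longer transcripts, and the others lie before the gene. Capitals mark the letters TGACG on either strand (CGTCA on the other). The stretches are from GRCm38.p6, chr15:101266596-101266845 for Nr4a1, chr2:57124004-57124253 for Nr4a2 and chr4:48045055-48045152 for Nr4a3.
Nr4a1: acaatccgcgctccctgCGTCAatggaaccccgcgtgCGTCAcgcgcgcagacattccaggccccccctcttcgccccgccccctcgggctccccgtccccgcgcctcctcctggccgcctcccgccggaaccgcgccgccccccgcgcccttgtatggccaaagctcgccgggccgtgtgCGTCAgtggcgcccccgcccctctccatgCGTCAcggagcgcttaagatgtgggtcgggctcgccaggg
Nr4a2: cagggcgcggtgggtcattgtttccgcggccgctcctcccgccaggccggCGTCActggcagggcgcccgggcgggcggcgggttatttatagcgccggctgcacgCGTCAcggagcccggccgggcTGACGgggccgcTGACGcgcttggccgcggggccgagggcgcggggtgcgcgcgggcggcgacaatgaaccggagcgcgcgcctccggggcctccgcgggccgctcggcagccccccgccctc
Nr4a3: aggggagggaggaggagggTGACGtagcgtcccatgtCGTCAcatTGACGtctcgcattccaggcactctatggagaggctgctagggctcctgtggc
Each of the 3 windows, from 250 bases before the RefSeq start to 50 after it, held 4 half-sites. Of all 32851 RefSeq promoter windows of that length, 20.8% held at least 1 half-site and 0.231% held 4 or more. In Nr4a1 they began 233, 213, 69 and 40 bases before the start, in Nr4a2 200, 144, 123 and 111, and in Nr4a3 231, 213, 205 and 147, the last of them outside the printed stretch. No window of the family held the full CRE (TGACGTCA, in 1.79% of all windows), the Nr4a response element NBRE (AAAGGTCA, 1.51%) or the MEF2 site CTANNNNTAG (3.69%), each searched on both strands. The full CRE contains the half-site on both strands, so that these searches overlap. The windows were 72.3%, 81.7% and 64.7% G and C, in that order, and a letter match does not show that a factor binds there.

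The libraries held 12705969 to 25732258 counts per mouse (median 17237377). Levels are given in CPM, the count of a gene scaled to the size of its library after TMM adjustment, and levels of different genes are compared only per kb of merged exon. Ucp1, the uncoupling protein that makes brown fat produce heat, was at 551 to 1290 CPM in the mice at thermoneutrality and at 13000 to 21000 after cold. Afdn was at 151 to 214 CPM in control and 154 to 231 in Afadin KO mice at thermoneutrality, so that the label was not mirrored in its RNA there. After cold it was at 67.9 to 79.2 and 53.3 to 65.3 CPM. The groups are therefore called control and KO-labelled. Afdn was counted over the whole gene in the whole fat pad. Afadin protein was not measured in these libraries, and the paper reports a smaller cold rise of it in knock-out mice. The summed markers of skeletal muscle ran from 0.815 to 7040 CPM and reached over 1000 CPM in mice of every group. Because the tissue was bulk, fewer cells of a type and less RNA per cell cannot be told apart.

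**Figure D1:**
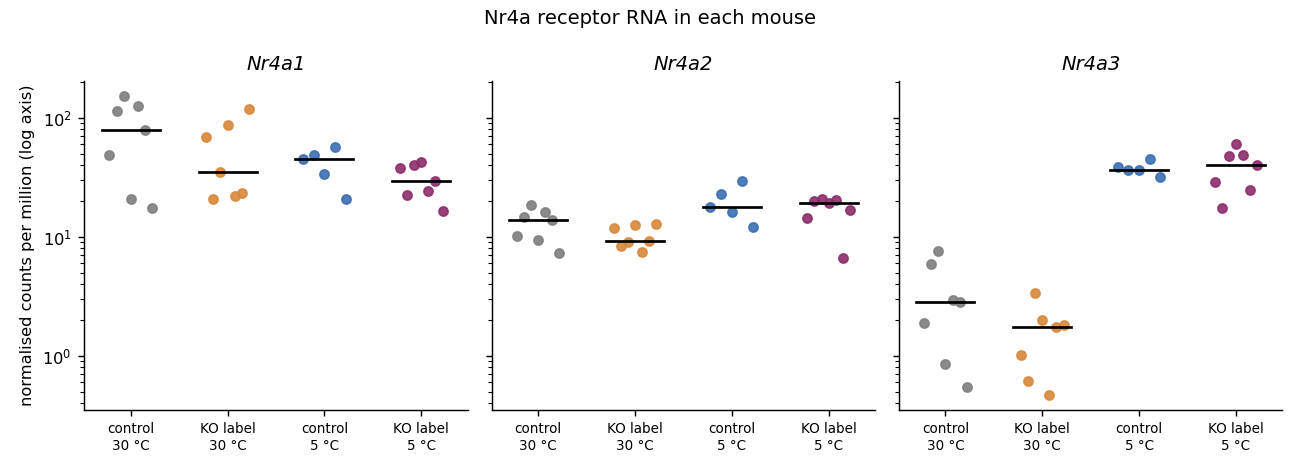
Level of each Nr4a gene in normalised CPM on a log axis, 1 point per mouse, with bars at the group median (7, 7, 5 and 7 mice). Nr4a3 lies at 0.470 to 7.64 CPM in the 14 mice at 30 °C and at 17.4 to 59.8 CPM in the 12 mice at 5 °C, while Nr4a1 and Nr4a2 overlap between temperatures.

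Nr4a3 rose in the cold in both genotypes. In the 7 control mice at thermoneutrality it was at 0.551 CPM in the lowest mouse, 2.84 at the median and 7.64 in the highest. The 5 control mice after cold had 38.9, 36.2, 36.5, 45.3 and 32.0 CPM. Every mouse after cold was thus above every mouse at thermoneutrality, and the cold mice lay close together while the warm mice differed by 13.9-fold. The rise was 11.7-fold (log2 fold change 3.55, SE 0.42, adjusted p = 3.93e-08 in the quasi-likelihood test of edgeR). In KO-labelled mice Nr4a3 went from 0.470, 1.76 and 3.38 CPM (lowest, median and highest of 7) to 17.4, 40.3 and 59.8 CPM, again without overlap. This rise was 24.6-fold (log2 fold change 4.62, SE 0.44, edgeR adjusted p = 5.23e-10). Taken alone, the log2 levels differed in both genotypes with the smallest p-value that an exact two-sided permutation test can give with these numbers of mice (p = 0.00126 for 7 against 5 and 0.000583 for 7 against 7). The warm mice had few reads, 10 to 138 counts of Nr4a3 per library, against 288 to 1003 after cold.

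The cold changed most of the transcriptome, and the members are read against that background. In control mice 65.0% of the 17286 tested genes passed the threshold, 31.6% higher and 33.4% lower, and in KO-labelled mice 68.6%, with 33.7% higher and 34.9% lower. Passing the threshold was therefore common. How many of all tested genes separated the groups without overlap, or reached the smallest permutation p-value, was not counted. By size, Nr4a3 ranked 109 from the highest log2 fold change in control mice and 63 in KO-labelled mice.

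Nr4a2 rose less. Control mice had 7.25, 13.8 and 18.3 CPM (lowest, median and highest of 7) at thermoneutrality, and 17.7, 22.8, 16.1, 29.7 and 12.0 CPM after cold. The groups overlapped, and 2 of the 5 cold mice were above all warm mice. The fold change was 1.54 (log2 fold change 0.62, SE 0.25, edgeR adjusted p = 0.0286), but the exact two-sided permutation test of Nr4a2 alone gave p = 0.0568. This call was lost when control mouse 1, 4 or 7 at thermoneutrality or 17 or 19 after cold was left out, with the log2 fold change between 0.42 and 0.57 in these fits, and when the counts were scaled by library size alone (0.51, adjusted p = 0.0585 from edgeR). In KO-labelled mice Nr4a2 went from 7.38, 9.20 and 12.8 CPM to 6.64, 19.3 and 20.8 CPM. Of the 7 cold mice 6 were above every warm mouse, and mouse 27, at 6.64 CPM, was below all of them. The log2 fold change was 0.73 (SE 0.23, edgeR adjusted p = 0.00616, exact two-sided permutation test of Nr4a2 alone p = 0.0233). Without mouse 27 it was 0.87 (edgeR adjusted p = 0.000394), and with library size alone as the scaling 0.41 (adjusted p = 0.0972 from edgeR). Under that scaling the median of all genes moved to -0.14 in control and -0.34 in KO-labelled mice, and relative to it Nr4a2 was at 0.65 and 0.75, against 0.63 and 0.76 with TMM factors.

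Nr4a1 was lower on average after cold, but the difference did not pass the threshold in either genotype. Cold was sampled at 6 h only, so that a rise that had ended before then could not be seen. Control mice had 17.5, 79.3 and 152 CPM (lowest, median and highest of 7) at thermoneutrality and 45.4, 48.5, 33.8, 56.9 and 20.9 CPM after cold. The cold values all fell inside the range of the warm ones. The log2 fold change was -0.96 (SE 0.49, edgeR adjusted p = 0.0862). In KO-labelled mice Nr4a1 was at 20.8, 34.9 and 118 CPM at thermoneutrality and at 16.4, 29.6 and 42.1 CPM after cold, a log2 fold change of -0.82 (SE 0.44, edgeR adjusted p = 0.0999). The exact two-sided permutation tests of Nr4a1 alone gave p = 0.301 and 0.216. Both differences passed the threshold with library size alone as the scaling (-1.05 and -1.15, adjusted p = 0.0480 and 0.0156 from edgeR), under which the median of all genes moved as given for Nr4a2. Relative to that median they were -0.91 and -0.81, against -0.94 and -0.79 with TMM factors. In control mice Nr4a1 also passed without mouse 4 (-1.13) or mouse 7 (-1.16), the warm mice in which it was lowest.

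**Figure D2:**
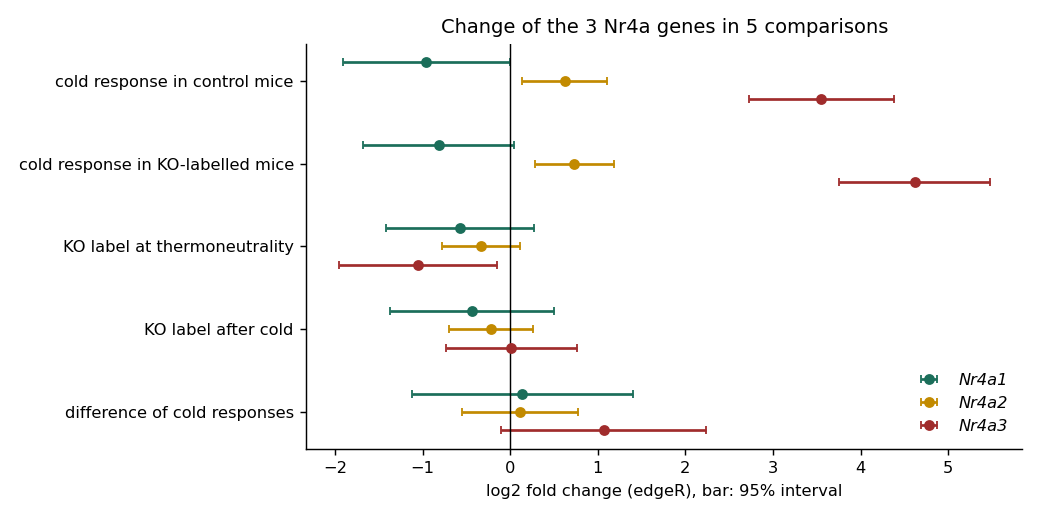
Log2 fold change of Nr4a1, Nr4a2 and Nr4a3 (edgeR) with its 95% interval in the 5 comparisons of the 26 mice. The intervals use a normal quantile and are slightly narrower than the test allows. For Nr4a1 and cold in control mice the interval is -1.91 to -0.0044, while the unadjusted p from edgeR is 0.0596. Nr4a3 stands at 3.55 and 4.62 for cold, and the intervals of the KO label after cold and of the difference of cold responses include 0 for all 3 genes.

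The balance of the family changed with the temperature. Within a mouse, scaling has no effect on the ratio of one gene to another, and the log2 ratio of Nr4a3 to Nr4a1 counts was compared between groups with an exact two-sided permutation test, adjusted over 15 tests of ratios. In control mice it ran from -5.41 to -4.25 at thermoneutrality and from -0.42 to 0.62 after cold, a shift of 4.66 (adjusted p = 0.00473). In KO-labelled mice it ran from -6.05 to -3.36 and from -0.41 to 1.30, a shift of 5.30 (adjusted p = 0.00437, exact permutation test). The ranges did not overlap in either genotype. Nr4a3 also rose relative to Nr4a2, by 3.40 and 4.06 on the log2 scale (adjusted p = 0.00473 and 0.00437, exact permutation test). Nr4a2 rose relative to Nr4a1 by 1.26 in control mice and by 1.24 in KO-labelled mice (adjusted p = 0.0335 for both, exact permutation test). With a single mouse left out, this last ratio missed the threshold in 9 of 26 repeats for control mice and in 7 for KO-labelled mice (adjusted p up to 0.0758 and 0.0670, exact permutation test).

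Per kb of exon, Nr4a1 was the highest of the 3 receptors in all 14 mice at thermoneutrality and in all 5 control mice after cold. In the KO-labelled mice after cold it was highest in 5 of 7, and Nr4a3 was highest in the other 2. At thermoneutrality the median share of the family was 85.4% Nr4a1, 12.8% Nr4a2 and 1.79% Nr4a3 in control mice, and 78.2%, 17.4% and 1.19% in KO-labelled mice. After cold the medians were 52.2%, 20.8% and 27.3% in control mice and 45.0%, 21.0% and 32.4% in KO-labelled mice. The share of Nr4a3 was 0.744 to 4.43% in the warm mice and 20.3 to 43.3% in the cold mice. The sum of the 3 genes overlapped between temperatures, with 6.87 to 49.2 CPM per kb in control mice at thermoneutrality, 14.3 to 31.1 in control mice after cold, 8.06 to 37.2 in KO-labelled mice at thermoneutrality and 14.2 to 26.7 in KO-labelled mice after cold.

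**Figure D3:**
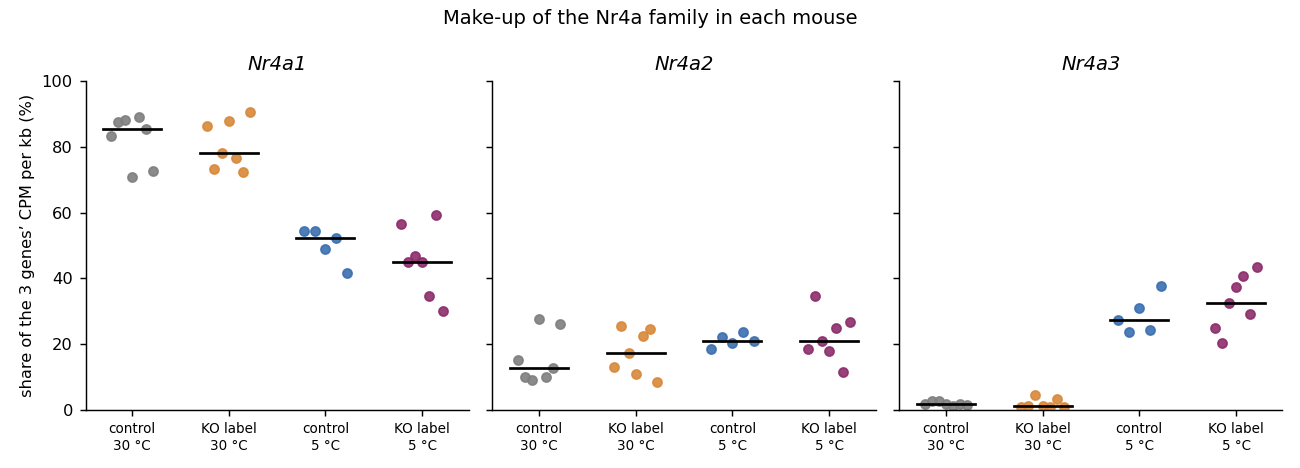
Share of each gene in the summed CPM per kb of the 3 Nr4a genes in percent, 1 point per mouse, with bars at the group median. The share of Nr4a3 is at most 4.43% in the mice at 30 °C and at least 20.3% in the mice at 5 °C.

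At thermoneutrality the 3 genes varied strongly between mice of one group. In control mice the SD of the log2 level was 1.26 for Nr4a1, 0.48 for Nr4a2 and 1.30 for Nr4a3, where the median SD of 14246 genes with at least 1 CPM was 0.19. Of those genes 98.9% varied less than Nr4a1 and 99.0% less than Nr4a3. In KO-labelled mice at thermoneutrality the SDs were 1.04, 0.31 and 0.92. After cold the SD of Nr4a3 in control mice was 0.18, close to the median gene at 0.16, while Nr4a1 had 0.57 and Nr4a2 0.49. In KO-labelled mice after cold the SDs were 0.50, 0.58 and 0.63. Differences between these SDs were not tested, and the genes compared were not matched for their level. Nr4a3 had 12 to 138 counts in control mice at thermoneutrality and 519 to 871 after cold.

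In control mice at thermoneutrality the members went together from mouse to mouse. Nr4a1 and Nr4a2 had a Pearson r of 0.971 (n = 7 mice, exact permutation test, p = 0.000198, adjusted p = 0.00179 over 9 relations) and a Spearman rho of 1.0 (exact p = 0.000397, adjusted p = 0.00357). Nr4a1 and Nr4a3 had r = 0.955 (exact permutation p = 0.00119, adjusted 0.00476) and rho = 0.964 (exact p = 0.00278, adjusted 0.00833). Nr4a2 and Nr4a3 had r = 0.937 (exact permutation p = 0.00159, adjusted 0.00476) and the same rho. Without the 2 mice farthest from the median of the first gene, r was 0.983, 0.826 and 0.797. In KO-labelled mice at thermoneutrality Nr4a1 and Nr4a2 had r = 0.952 (exact permutation p = 0.00317, adjusted 0.00714) and rho = 0.929 (exact p = 0.00675, adjusted 0.0152), and r = 0.899 without the 2 mice. Their relations with Nr4a3 were weaker, with r = 0.438 and 0.472 (exact permutation p = 0.305 and 0.281, adjusted 0.458 for both) and rho = 0.643 and 0.571 (exact p = 0.139 and 0.200). In KO-labelled mice after cold no pair passed, with r = -0.022, 0.293 and 0.402 (exact permutation p = 0.972, 0.515 and 0.378) and rho = 0.107, 0.5 and 0.429 (exact p = 0.840, 0.267 and 0.354). Relations were computed only for groups of at least 6 mice, which leaves out the control mice after cold, and the difference of r between groups was not tested. The summed skeletal muscle markers were highest, at 1390 and 5140 CPM, in control mice 4 and 7, the warm control mice with the lowest levels of all 3 receptors. These same mice were the 2 farthest from the median of Nr4a1 and of Nr4a2, so that the values of r above for control mice without 2 mice are also those without the highest muscle markers. In KO-labelled mice at thermoneutrality the markers were highest in mouse 12 (1411 CPM) and mouse 14 (1275 CPM). There Nr4a1 was at 21.9 CPM in mouse 12 and at 118 CPM, the highest of the group, in mouse 14. A relation of the receptors to the muscle markers was not tested.

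**Figure D4:**
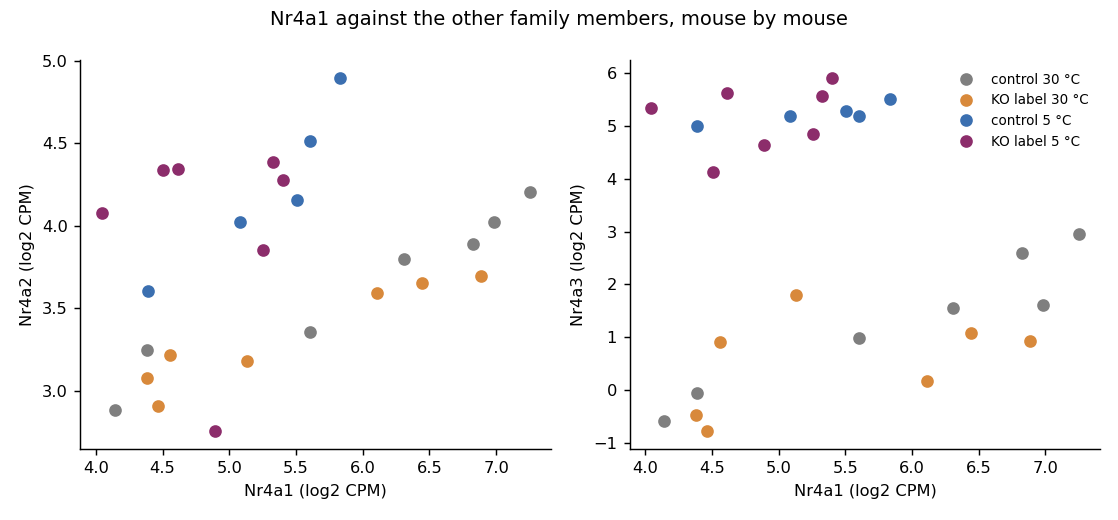
Log2 CPM of Nr4a1 against that of Nr4a2 (left) and Nr4a3 (right), 1 point per mouse, coloured by group. The control mice at 30 °C lie along a line in both panels (r = 0.971 and 0.955), and the mice at 5 °C form a separate cloud above 4 log2 CPM of Nr4a3.

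The genes whose level was most like that of each receptor were listed as a description. All points share the 26 libraries, and over all mice the temperature alone makes many genes alike. Nr4a1 was most like Btg2 (r = 0.842), Ubald1, Zfp36, Egr1 and Ccn1, of which Btg2, Zfp36, Egr1 and Ccn1 are early response genes. Nr4a2 was most like Cnnm4 (0.792), Lbh, Csrp2, Irs2 and Usp2. Nr4a3 was most like BC005537 (0.972), Sgk1, Ackr3, Ccn2 and Ccnl1. Sgk1, a serum and glucocorticoid regulated kinase, was at 22.7 to 74.0 CPM in the warm mice and at 191 to 317 in the cold mice. Between the members r was 0.341 for Nr4a1 and Nr4a2, -0.061 for Nr4a1 and Nr4a3 and 0.712 for Nr4a2 and Nr4a3.

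After the mean of each group was subtracted, Nr4a1 was most like Irs2 (r = 0.956), which encodes an insulin receptor substrate, followed by Fos (0.866), Btg2, Sik1 and Zfp36. Within groups of 7 mice, Irs2 and Nr4a1 had r = 0.990 in control and 0.968 in KO-labelled mice at thermoneutrality, and 0.820 in KO-labelled mice after cold. Across temperatures they differed. The log2 fold change of Irs2 in the cold was 1.66 for control and 2.18 for KO-labelled mice (edgeR adjusted p = 0.000133 and 1.68e-06), where Nr4a1 had -0.96 and -0.82. Nr4a2 was most like Rasd1 (0.755), Lbh, Fam222a, Kcnk3 and Gm22442, and Nr4a3 most like Ccnl1 (0.833), Apold1, Tmed5, 3930402G23Rik and Wdr47. The r between members on this scale was 0.658 for Nr4a1 and Nr4a2, 0.701 for Nr4a1 and Nr4a3 and 0.587 for Nr4a2 and Nr4a3. Of 24 immediate early genes with at least 1 CPM all had a positive r with Nr4a1, with a median of 0.727, where the median over 14245 genes was 0.013. With Nr4a3 23 of the 24 were positive (median 0.586) and with Nr4a2 20 (median 0.373). Among all 14245 genes, 52.1% had a positive r with Nr4a1, 53.4% with Nr4a3 and 51.1% with Nr4a2. Fos, Egr1, Btg2 and Zfp36 had r = 0.937, 0.93, 0.973 and 0.924 with Nr4a1 in control mice at thermoneutrality. In KO-labelled mice r with Nr4a1 was 0.913, 0.867, 0.929 and 0.877 at thermoneutrality, and 0.741, 0.455, 0.609 and 0.668 after cold. In the latter mice it was -0.276, -0.774, -0.612 and -0.542 with Nr4a2, and -0.04, -0.375, -0.152 and 0.047 with Nr4a3. Differences of r between groups were not tested.

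The other early genes did not move as one in the cold. Of 25 tested immediate early genes, a list that does not hold the Nr4a genes, 10 rose and 3 fell in control mice, and 14 rose and 1 fell in KO-labelled mice. Of all tested genes 31.6% rose and 33.4% fell in control mice, and 33.7% and 34.9% in KO-labelled mice. Without control mouse 4 or 7, 5 and 7 of the list fell in control mice, and without mouse 27, 2 fell in KO-labelled mice. The median log2 fold change was 0.56 and 0.89, against -0.01 and -0.03 for all tested genes. Atf3, a stress-induced factor that can repress transcription, rose from a mean of 11.9 to 38.1 CPM in control mice (log2 fold change 1.68, SE 0.48, edgeR adjusted p = 0.00345) and by 2.90 in KO-labelled mice. Fosb, a partner of Jun in the AP-1 factor, rose from 3.83 to 14.2 CPM (1.90, SE 0.65, adjusted p = 0.0129 from edgeR) and by 2.82 in KO-labelled mice. Btg2, an antiproliferative gene, fell from 78.7 to 26.0 CPM (-1.59, SE 0.43, adjusted p = 0.00219 from edgeR), and in KO-labelled mice it had -0.60 (adjusted p = 0.165). Egr1, a zinc finger factor, fell from 36.4 to 10.7 CPM (-1.75, SE 0.75, adjusted p = 0.0428 from edgeR), and in KO-labelled mice it had -1.04 (adjusted p = 0.167). Fos was at -0.77 and 0.20 and did not pass in either genotype (edgeR adjusted p = 0.387 and 0.809). Of the 18 list members with a RefSeq window, 10 held a CRE half-site (55.6%, against 20.8% of all windows). A share above that of all windows was not limited to early genes. It was 9 of 19 (47.4%) for genes from the β-adrenergic receptor to CREB and 5 of 10 for Nr4a partners and cofactors. Nuclear receptors, the Nr4a genes among them, had 14 of 43 (32.6%), and MEF2 factors with class IIa deacetylases 2 of 8. Metabolic Nr4a targets were lower, at 2 of 15 (13.3%). Differences between lists were not tested.

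Upstream of the receptors, the pathway from the β-adrenergic receptor to CREB held genes that rose and genes that fell. Of 25 genes, all tested, 10 rose and 6 fell in control mice, and 10 rose and 7 fell in KO-labelled mice, shares close to the 65.0% and 68.6% of all genes that passed, with a median log2 fold change of 0.14 and 0.24. Among adenylyl cyclases, which make cAMP, Adcy3 rose from 86.7 to 860 CPM in control mice (log2 fold change 3.31, SE 0.09, edgeR adjusted p = 7.17e-20) and by 3.19 in KO-labelled mice. Adcy9 fell by 2.02 (SE 0.12, adjusted p = 5.05e-14 from edgeR) and 1.76. Adrb1, the β1-adrenergic receptor, fell from 21.8 to 7.94 CPM (-1.46, SE 0.25, adjusted p = 1.01e-05 from edgeR) and by 1.40 in KO-labelled mice. Sik3, a salt-inducible kinase that holds the CREB coactivators in the cytoplasm, rose by 1.62 (SE 0.08, adjusted p = 6.66e-16 from edgeR) and 1.66. The next 2 genes were picked after their values were seen. Adrb3, the main β-adrenergic receptor of brown fat, fell by 0.58 and 0.94 (adjusted p = 0.0350 and 0.000383 from edgeR), and Creb1 had 0.05 and -0.11 (adjusted p = 0.688 and 0.298 from edgeR).

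MEF2 factors and the class IIa deacetylases that repress them are a second known input to Nr4a1. Of 7 tested genes of 8, 2 rose and 3 fell in control mice, and 1 rose and 3 fell in KO-labelled mice, where 65.0% and 68.6% of all genes passed. The median log2 fold change was 0.01 and -0.15, against -0.01 and -0.03 for all genes. Mef2d rose by 0.84 in both genotypes (SE 0.10 and 0.09, edgeR adjusted p = 1.54e-08 and 3.81e-09). The deacetylase Hdac5 fell from 64.3 to 21.2 CPM in control mice (-1.60, SE 0.07, adjusted p = 7.30e-16 from edgeR) and by 1.62 in KO-labelled mice, and Hdac9 fell by 1.68 and 1.62. Hdac7 rose by 0.30 in control mice (SE 0.10, adjusted p = 0.0127 from edgeR) and had 0.14 in KO-labelled mice (adjusted p = 0.203). With library size alone or with upper-quartile factors, 1 gene of this list rose in control mice in place of 2.

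Among partners and cofactors of the receptors, 4 of 13 rose and 6 fell in control mice, and 3 rose and 7 fell in KO-labelled mice, near the 65.0% and 68.6% of all genes that passed. The median log2 fold change was -0.08 and -0.16. Ncoa1, a steroid receptor coactivator, rose by 1.33 (SE 0.07, edgeR adjusted p = 8.41e-15) and 1.17. Rcor1, a corepressor that is recruited by Nr4a2, rose by 1.28 (SE 0.08, adjusted p = 5.45e-13 from edgeR) and 0.87. The acetyltransferase gene Kat2b fell by 0.78 (SE 0.07, adjusted p = 1.80e-10 from edgeR) and 0.66, and Bcl2, whose protein is bound by Nr4a1 at mitochondria, fell by 0.67 (SE 0.15, adjusted p = 0.000259 from edgeR) and 0.68.

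Of 14 tested metabolic genes known as Nr4a targets in muscle or liver, 2 rose and 4 fell in control mice, and 5 rose and 2 fell in KO-labelled mice, against 65.0% and 68.6% of all genes that passed. The median log2 fold change was -0.15 and 0.44, against -0.01 and -0.03 for all genes. Several of these genes are muscle enzymes, and the skeletal muscle markers varied between mice. Without the mice above 1000 CPM of those markers, 5 of the list fell in KO-labelled mice, while with the markers as a covariate 6 rose and 3 fell there and 2 rose and 6 fell in control mice. Without mouse 25 alone 4 fell in KO-labelled mice, and without mouse 18 2 fell in control mice. Cd36, a fatty acid transporter, rose from 2015 to 3931 CPM in control mice (0.96, SE 0.06, edgeR adjusted p = 2.21e-13) and by 1.05 in KO-labelled mice. Pdk4, a kinase that inhibits pyruvate dehydrogenase, rose from 769 to 2857 CPM (1.89, SE 0.31, adjusted p = 6.46e-06 from edgeR) and by 2.62. Slc2a4, the insulin-responsive glucose transporter, fell by 1.02 (SE 0.14, adjusted p = 6.47e-07 from edgeR) and 0.79. Prkag3, a subunit of AMP-activated kinase, fell by 1.57 in control mice (SE 0.59, adjusted p = 0.0230 from edgeR) and had -1.13 in KO-labelled mice (adjusted p = 0.0522).

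Set among the nuclear receptors, Nr4a3 had the highest cold log2 fold change of the 37 tested (of 49 listed) in both genotypes. The next was Vdr, the vitamin D receptor, which rose from 0.548 to 5.01 CPM in control mice (3.19, SE 0.26, edgeR adjusted p = 3.03e-11) and by 3.43 in KO-labelled mice. Nr4a2 stood at rank 10 and 5, and Nr4a1 at rank 28 and 29. Of the 37 receptors 12 rose and 14 fell in control mice, near the shares of all genes there (31.6% higher and 33.4% lower). In KO-labelled mice 13 of the 37 rose and 17 fell, where 33.7% of all genes rose and 34.9% fell. With library size alone 5 receptors rose in KO-labelled mice. Esr1, the oestrogen receptor alpha, fell from 89.0 to 15.2 CPM (-2.54, SE 0.17, adjusted p = 7.53e-13 from edgeR) and by 2.63 in KO-labelled mice. Nr3c2, the mineralocorticoid receptor, fell from 35.6 to 7.11 CPM (-2.32, SE 0.08, adjusted p = 1.61e-18 from edgeR) and by 2.17. By mean level per kb, Nr4a1 ranked 4 of 37 in control mice at thermoneutrality and 8 after cold, Nr4a2 23 and 16, and Nr4a3 31 and 13. In KO-labelled mice the ranks were 9 and 11 for Nr4a1, 25 and 18 for Nr4a2, and 32 and 13 for Nr4a3.

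**Figure D5:**
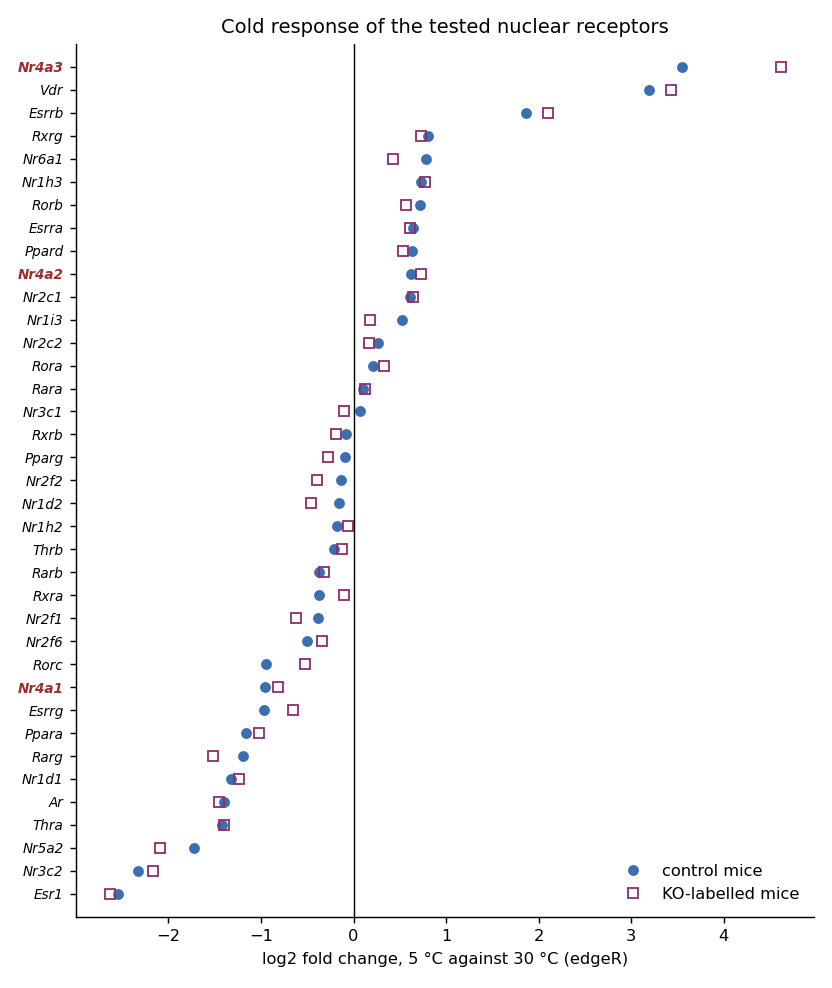
Cold log2 fold change (edgeR) of the 37 tested nuclear receptors in control mice (filled circles) and KO-labelled mice (open squares), ordered by the value in control mice, with the Nr4a genes in red. Nr4a3 is at the top in both genotypes (3.55 and 4.62), Nr4a2 is above 0 (0.62 and 0.73) and Nr4a1 below 0 (-0.96 and -0.82, neither past the threshold).

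The Afadin label had no effect past the threshold on any of the 3 receptors. Between genotypes few genes passed at all, 0.0810% of those tested at thermoneutrality and 0.139% after cold. At thermoneutrality Nr4a3 had the largest difference of the 3. The means were 1.58 ± 1.00 CPM in KO-labelled and 3.23 ± 2.64 CPM in control mice (SD, n = 7 each), a log2 fold change of -1.05 (SE 0.46, 95% interval -1.95 to -0.15). The groups overlapped, and its adjusted p was 0.594 from edgeR. Nr4a1 had -0.57 (95% interval -1.42 to 0.27, edgeR adjusted p = 0.826) and Nr4a2 -0.33 (-0.78 to 0.12, adjusted p = 0.790). After cold Nr4a3 was at 38.2 ± 15.1 CPM in KO-labelled mice (SD, n = 7) and 37.8 ± 4.86 CPM in control mice (SD, n = 5), with a log2 fold change of 0.01 (95% interval -0.73 to 0.76, edgeR adjusted p = 0.994). Nr4a1 had -0.43 (-1.37 to 0.50, adjusted p = 0.742 from edgeR) and Nr4a2 -0.22 (-0.70 to 0.26, adjusted p = 0.743 from edgeR). The intervals do not show that the genotypes were alike.

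The cold responses of the genotypes share no mice, and their difference was tested in the same fit, in which 1.16% of genes passed. The rise of Nr4a3 was larger by 1.07 on the log2 scale in KO-labelled mice (SE 0.60, 95% interval -0.11 to 2.24), which did not pass the threshold (edgeR adjusted p = 0.388). For Nr4a1 the difference was 0.14 (SE 0.64, adjusted p = 0.941 from edgeR) and for Nr4a2 0.11 (SE 0.34, adjusted p = 0.907 from edgeR). With library size alone they were -0.10 and -0.11, while the median of all genes moved to -0.15, and relative to that median they were 0.05 and 0.04. None of the within-mouse ratios differed with the label past the threshold (adjusted p = 0.492 to 0.973 over the 9 tests of the label and of the difference, exact permutation test). No gene of the 6 pathway lists passed between genotypes at either temperature, while DESeq2 called 1 gene of the adrenergic list and 1 of the metabolic list after cold. The immediate early genes had a median log2 fold change of -0.55 in KO-labelled against control mice at thermoneutrality, where all tested genes had -0.02, and of 0.01 after cold, where all had 0.02. In the difference of cold responses, 1 list gene passed. Fbp2, the muscle isoform of fructose bisphosphatase, fell by 0.43 in control mice and rose by 0.42 in KO-labelled mice, a difference of 0.84 (SE 0.21, edgeR adjusted p = 0.0483). It no longer passed in 21 of the 26 fits that left out 1 mouse, nor with library size alone, with upper-quartile factors, without the filter on low counts or without the mice high in muscle markers.

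Markers of other cells moved with the cold as well. The 5 neutrophil markers, of which 4 were tested, summed to 1.81 to 6.10 CPM in control mice at thermoneutrality, 1.45 to 3.80 in KO-labelled mice at thermoneutrality, 4.93 to 10.7 in control mice after cold and 4.54 to 55.4 in KO-labelled mice after cold, with Ly6g at 3 counts or less in every mouse. Of the 4, 3 rose in control mice and 4 in KO-labelled mice. Their part in the rise of Nr4a3 was not tested. Mouse 27 had the highest sum, and without it the rise of Nr4a3 in KO-labelled mice was 4.70 on the log2 scale. Macrophage markers summed to 175 to 283 CPM over all mice. Endothelial markers summed to 467 to 710 CPM in the warm and 635 to 850 CPM in the cold mice. In control mice 1 of 7 macrophage markers rose in the cold and 4 fell, and in KO-labelled mice 3 rose and 3 fell. Of 6 endothelial markers 3 rose and 3 fell in both genotypes. The shares of all tested genes were 31.6% higher and 33.4% lower in control mice. In KO-labelled mice they were 33.7% and 34.9%. Lymphocyte markers summed to at most 21.3 CPM, in KO-labelled mouse 23. The 8 brown adipocyte markers summed to 6840 to 8650 CPM in the warm and 25100 to 32000 CPM in the cold mice. Most of this sum after cold was Ucp1, which rose from a mean of 985 to 16000 CPM in control mice. Of the 8 markers 4 rose and 2 fell in control mice, and 4 rose and 3 fell in KO-labelled mice. Their median log2 fold change was 0.07 and 0.20. None of the 6 skeletal muscle markers passed between temperatures. In the 16 mice with at most 1000 CPM of muscle markers, the cold log2 fold change of Nr4a3 was 3.18 in control and 4.08 in KO-labelled mice (edgeR adjusted p = 3.98e-06 and 9.01e-07), a choice made after the data were seen.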

How the data were processed

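RNA-sequencing of BAT from 26 mice was used, grouped by the sample labels (WT30, KO30, WT5, KO5). The authors made stranded, rRNA-depleted libraries, used STAR v2.5.2b to align 100-bp single-end reads to mm10 and assigned them to GENCODE M13 genes by featureCounts v1.5.2. The deposited table holds raw counts, not normalized. The strand setting of the counting is not given in the sources used here. Symbols and exon lengths were taken from GENCODE M21, promoters from RefSeq (GRCm38.p6). All columns had a sample.

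Genes were filtered with filterByExpr by group, scaled with TMM and tested in R 4.3.3 with edgeR 4.0.16 (quasi-likelihood, legacy mode, limma 3.58.1) with 1 term for each of the 4 groups. p-values were adjusted by Benjamini-Hochberg over the 17286 genes with a threshold of 0.05. SEs were derived from the F statistic. Log2 CPM had a prior count of 2. Single genes and within-mouse ratios (0.5 counts added) were also compared with exact two-sided permutation tests, coded in numpy 2.4.6. On a small simulated case this code gave the same p-value as scipy 1.17.1. Where nothing says that libraries came from separate litters, p-values measure the spread between these mice. All 73 pairs of mice of the same group differed by more than sampling noise (lowest chi-square per gene 4.69). The scripts were tested on simulated data.

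The members and the 6 pathway lists and 9 marker lists were chosen with earlier results of these data known. Of each pathway list up to 2 genes that rose most and up to 2 that fell most in cold control mice are named, if past the threshold and at 1 CPM or more on average, and those past it for the label or the difference, with the 5 genes most like each member. Other genes were chosen after their values were seen. Alternatives were library size alone, RLE or upper-quartile factors, no filter or 10 counts in every mouse, DESeq2 1.42.0, revised quasi-likelihood, a fit to only the groups compared, and each mouse left out in turn. After the data were seen, the muscle markers were used as a covariate or as a limit.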

Additional observations from a re-analysis of the deposited data

Results flagged for a closer look

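The log2 ratio of Nr4a3 to Nr4a2 was -0.21 in the lowest of the 7 KO-labelled mice after cold, where the other 6 lay closer together (median 1.26, highest 1.89). Its gap to the nearest mouse was 0.574 of the range of the group, above Dixon's 95% critical value of 0.568 for 7 mice. Of 24 groups of values looked at in this way, this was the 1 group flagged, and chance flags about 1 in 20.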

How the results depend on the processing

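The cold rise of Nr4a3 kept its direction and its side of the threshold under all alternatives run. No paired analysis was possible because the groups share no replicate numbers. With library size alone, Nr4a1 passed for cold in control (-1.05) and KO-labelled mice (-1.15), Nr4a2 no longer passed (0.51 and 0.41), the label after cold turned to -0.073 for Nr4a3, the differences of cold responses to -0.10 for Nr4a1 and -0.11 for Nr4a2, and the Pearson r of Nr4a1 and Nr4a3 in KO-labelled mice after cold to -0.055. That scaling moved the median of all genes to -0.14 and -0.34 for cold, -0.03 for the label after cold and -0.15 for the difference. Relative to the median, Nr4a1 was at -0.91 and -0.81 and Nr4a2 at 0.65 and 0.75 for cold, Nr4a3 at -0.05 for the label, and the differences were 0.05 and 0.04. With upper-quartile factors Nr4a2 lost its call in control mice (0.51), Nr4a1 passed in KO-labelled mice (-0.97), and the label after cold was -0.01 for Nr4a3. The median of all genes then stood at -0.12 and -0.18 for cold, and relative to it Nr4a2 was at 0.64 in control and Nr4a1 at -0.79 in KO-labelled mice. With the mice up to 1000 CPM of muscle markers only (5, 4, 3 and 4 per group), Nr4a1 passed in control mice (-1.19), Nr4a2 did not (0.62), and the label after cold was -0.24 for Nr4a3. This fit had fewer mice, and the cause was not tested further.

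Leaving out 1 mouse, the cold log2 fold change in control mice ran from -1.16 to -0.72 for Nr4a1 and from 0.42 to 0.75 for Nr4a2. The label after cold ran from -0.13 to 0.14 for Nr4a3, and the difference of cold responses from -0.10 to 0.45 for Nr4a1 and from -0.0199 to 0.31 for Nr4a2. The log2 ratio of Nr4a2 to Nr4a1 shifted by 1.14 to 1.45 in control mice and by 1.06 to 1.46 in KO-labelled mice, with a difference of -0.21 to 0.20.

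The number of genes called was 14 for the label at thermoneutrality, 24 for the label after cold and 200 for the difference. It was 34 and 5 with library size alone for the first 2, and 9, 15 and 27 without the filter. It was 48, 197 and 488 with DESeq2. The count for the label after cold was 45 with at least 10 counts in every mouse and 9 with only the groups compared. With the low-muscle mice it was 5 for the label after cold and 31 for the difference. Without 1 mouse the 3 counts ran from 7 to 93 (the highest without control mouse 7), 7 to 100 (without KO-labelled mouse 22) and 49 to 371 (without control mouse 7). A fit to only the groups compared gives no difference of cold responses. Nr4a3 had 10 to 138 counts per warm library, and how its fold depends on depth was not tested.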
